A study of Mus musculus with 21 samples.

Results

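The genes described here write, remove and read methylation of DNA: the methyltransferases *Dnmt1*, *Dnmt3a* and *Dnmt3b*, the maintenance factor *Uhrf1*, the dioxygenases *Tet1*, *Tet2* and *Tet3*, and the methyl-CpG binding proteins *Mbd1* and *Mbd2*. They are 9 of the 52550 genes of the count table, matched by symbol, and each was found once. The family was selected on values of these same libraries, namely the lower *Dnmt3a* and *Tet1* at P30 than at P14, so the P14 to P30 values below are a description and carry no test. RNA was sequenced from 7 groups of mouse inner ear cells labelled C57BL/6, with 3 libraries per group and 21 in all: spiral ganglion neurons (SGNs), which carry sound information from hair cells to the brainstem, at 5 ages from E15.5 over P1, P8 and P14 up to P30, hair cells (HCs) at P12, and cochlear glia at P8. Every group carried the Cre-dependent tdTomato allele Rosa26-CAG-loxp-stop-loxp-tdTomato (Ai9). SGNs were *ShhCre/+* with Ai9 and were picked by hand as tdTomato+ cells, so this group holds cells with a history of *Shh* expression. HCs came from the cochlear and vestibular organs of *Atoh1-CreER+* mice with Ai9, and glia from the cochlea of *vGlut3-iCreER/+* mice with Ai9, both after tamoxifen in the first postnatal days. The glial line also labels inner hair cells, which the dissection was meant to leave out. A library pooled 69 to 195 SGNs, 86 to 125 glial cells or about 1200 HCs according to the labels.

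Methylation of cytosine in CpG dinucleotides is set on new sites by the DNMT3 enzymes and is copied onto the new strand after DNA replication by DNMT1, which UHRF1 brings to hemimethylated sites. TET enzymes oxidize 5-methylcytosine, and the products can be diluted by replication or cut out by base excision repair. MBD proteins bind methylated CpGs and bring repressor complexes. In postmitotic neurons of the brain, DNMT3A is known for adding methylation, including outside CpGs, in the first postnatal weeks, and neurons carry far more 5-hydroxymethylcytosine than dividing cells.

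In GENCODE M21 on GRCm38, the genes lie on 8 chromosomes. *Dnmt3a* spans chr12:3806007-3914443 on the plus strand, *Dnmt3b* chr2:153649450-153687730 on the plus strand, *Dnmt1* chr9:20907209-20959888 on the minus strand and *Uhrf1* chr17:56303321-56323486 on the plus strand. *Tet1* spans chr10:62804570-62908996, *Tet2* chr3:133463679-133545139 and *Tet3* chr6:83362373-83459084, each on the minus strand. *Mbd1* and *Mbd2* share a further chromosome and are both on its plus strand. Exons of *Dnmt3a* share 133 bases with the antisense gene *Dnmt3aos* and exons of *Tet2* share 43 bases with the antisense gene *Gm42567*. The strand setting of the counting was not given in the sources used here, but these bases make up 0.799% and 0.255% of the exonic length of *Dnmt3a* and *Tet2*.

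Promoter windows of 300 bases around RefSeq gene starts (GRCm38.p6, written on the strand of the gene) were found for 7 of the 9 genes, with 12 windows in all; *Mbd1* and *Mbd2* had no entry. Windows of *Dnmt3a*, *Tet1* and *Tet2*, the genes called from E15.5 to P8 whose counts lay well above the limit of counting at both ages, are shown because the substrate of these enzymes, the CpG, is itself dense at some of their own starts. Capitals mark each CG. The first of 3 *Dnmt3a* windows is chr12:3806730-3807029 and the last, at an internal start, is chr12:3891494-3891793, both on the plus strand. Another, chr12:3806910-3807209, overlaps with the first and is not shown. The *Tet1* window is chr10:62887275-62887574 and the *Tet2* window is chr3:133544341-133544640, both on the minus strand. The *Tet1* window, too, lies at an internal start, because the gene as annotated begins at 62908996 on the minus strand. The CG content at that outer *Tet1* start was not examined. The first *Dnmt3a* window and the *Tet2* window also lie inside the genes as annotated. These begin at 3806007 on the plus strand and at 133545139 on the minus strand, and the CG content there was not examined either.
Dnmt3a first start: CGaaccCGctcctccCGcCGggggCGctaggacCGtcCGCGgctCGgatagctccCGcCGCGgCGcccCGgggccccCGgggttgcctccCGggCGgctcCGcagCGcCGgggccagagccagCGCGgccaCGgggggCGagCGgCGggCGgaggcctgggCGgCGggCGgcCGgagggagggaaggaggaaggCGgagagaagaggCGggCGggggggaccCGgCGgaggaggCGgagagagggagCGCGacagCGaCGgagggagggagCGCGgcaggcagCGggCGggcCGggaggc
Dnmt3a internal start: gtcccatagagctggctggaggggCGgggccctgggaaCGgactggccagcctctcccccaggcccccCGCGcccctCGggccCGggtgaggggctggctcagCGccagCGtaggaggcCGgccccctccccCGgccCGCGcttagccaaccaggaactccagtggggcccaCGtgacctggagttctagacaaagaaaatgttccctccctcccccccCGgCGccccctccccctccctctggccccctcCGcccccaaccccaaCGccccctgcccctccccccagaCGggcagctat
Tet1: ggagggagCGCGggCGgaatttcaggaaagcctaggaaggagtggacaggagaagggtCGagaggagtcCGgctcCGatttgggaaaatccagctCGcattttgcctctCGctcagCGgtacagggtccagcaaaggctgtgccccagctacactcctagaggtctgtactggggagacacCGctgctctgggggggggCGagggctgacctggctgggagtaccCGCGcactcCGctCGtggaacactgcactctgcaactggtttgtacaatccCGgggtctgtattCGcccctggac
Tet2: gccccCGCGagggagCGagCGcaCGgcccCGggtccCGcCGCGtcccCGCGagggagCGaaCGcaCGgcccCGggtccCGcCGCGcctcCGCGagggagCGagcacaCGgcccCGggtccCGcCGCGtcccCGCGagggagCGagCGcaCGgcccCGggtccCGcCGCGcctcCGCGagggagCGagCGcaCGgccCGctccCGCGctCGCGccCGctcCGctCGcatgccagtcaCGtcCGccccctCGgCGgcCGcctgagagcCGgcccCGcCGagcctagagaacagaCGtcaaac

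The letters CG, which read the same on both strands and were counted without overlap, occurred 46 times in the first *Dnmt3a* window, 47 times in the one that overlaps with it and 18 times in the internal one. They occurred 17 times in the *Tet1* window and 57 times in the *Tet2* window. The 2 *Uhrf1* windows, not shown, held 12 and 33. Of the 32851 RefSeq promoter windows of this length, 94.6% held at least 1 CG, and the median was 7. As many as in the first *Dnmt3a* window were found in 1.65% of all windows, as many as in its internal window in 29.7%, as many as in the *Tet1* window in 31.4%, and as many as in the *Tet2* window in 0.152%. Gene counts do not tell the starts of a gene apart, and no methylation was measured here.

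Levels are given as RPKM, counts per kilobase of the deposited gene length, corrected for library size and scaled between the 21 libraries by TMM factors, so that they can be compared both between genes and between libraries. Libraries held between 10368240 and 37287489 counts on genes. A count of 3, the limit that a count of 0 allows, equals between 0.0805 and 0.289 CPM (counts corrected for library size only), and this limit covers counting error only. Markers of SGNs, HCs and glia fitted the labels. The summed level of 4 SGN markers was 111 to 391 RPKM in SGN libraries and at most 2.94 in HCs, and was 5.88, 6.43 and 53.1 in glia, where the first library held the most. The summed level of 4 HC markers was 376 to 394 RPKM in HCs and at most 49.3 elsewhere, with 29.4 to 43.6 in glia. That of 4 glial markers was 4870 to 6708 RPKM in glia, 399 to 538 in P8 SGNs, 69.7 to 192 in P14 SGNs and at most 78.7 in the remaining groups. Connective tissue markers, also 4 genes, summed to 139, 264 and 190 RPKM in glia, above every SGN and HC library. The part of such cells in the glial levels was not tested. In pooled cells, fewer expressing cells and less RNA per cell cannot be told apart.

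**Figure D1:**
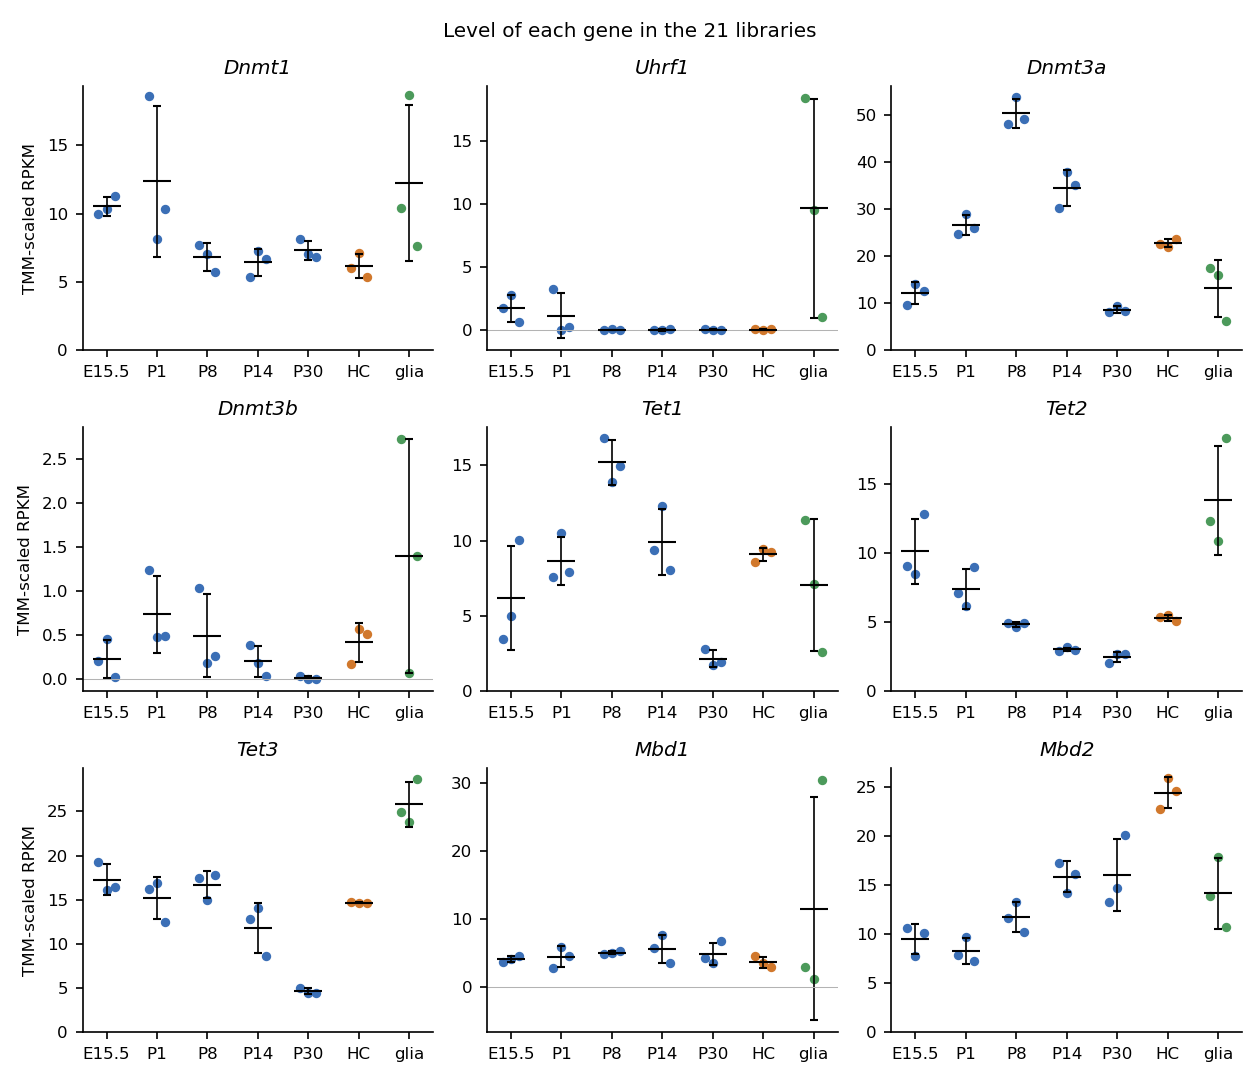
Level of the 9 genes in each of the 21 libraries (y axis, TMM-scaled RPKM; points, single libraries; long tick and bars, mean and SD of 3 libraries; blue, SGNs by age; orange, P12 HCs; green, P8 glia). *Dnmt3a* and *Tet1* stand highest in the 3 P8 SGN libraries and *Dnmt3a* lowest in the 3 P30 libraries among SGN libraries, while *Uhrf1* has its 2 highest values in glia.

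*Dnmt3a*, the de novo methyltransferase, was the gene of the family with the highest level in SGNs at P1, P8 and P14, and its levels traced a hump over age. Its level was 9.61, 14.2 and 12.6 RPKM in the 3 E15.5 libraries, 24.8, 29 and 26 at P1, and 48, 53.8 and 49.2 at P8. It was 30.4, 37.9 and 35.1 RPKM at P14 and 8.15, 9.44 and 8.46 at P30. No library of one age overlapped with those of another, and the P30 libraries lay below every E15.5 library. From E15.5 to P1, *Dnmt3a* rose 2.19-fold (log2 difference 1.13, SE 0.15, limma-voom adjusted p = 0.000357), and it was the only 1 of the 9 genes past both thresholds, 2-fold and an adjusted p of 0.05, in a comparison where 8.26% of the 15113 genes tested were called. Without the first E15.5 library the change was 0.99 on the log2 scale, just under the 2-fold threshold, and without the third *Tet1* was called too, 2 of the 9 genes. From P1 to P8 none of the 9 genes was called, against 7.44% of all genes, although *Dnmt3a* was 1.90-fold higher at P8 with an adjusted p of 0.000161 by limma-voom.

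Over the whole span from E15.5 to P8, which uses no P14 or P30 library, *Dnmt3a* rose 4.16-fold (log2 difference 2.06, SE 0.14, limma-voom adjusted p = 1.01e-07). It was called under each of the 16 alternatives run, with log2 differences between 1.69 and 2.15. In this span 4 of the 9 genes were called, *Dnmt3a* and *Tet1* higher and *Tet2* and *Uhrf1* lower at P8, where 25.7% of all genes tested were called. Of these, *Uhrf1* could be tested only because it was high at E15.5, as set out below, so its call is a description. The median log2 difference of the 9 genes was 0.29, beside 0.07 over all genes tested.

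From P14 to P30, the contrast whose values chose the family, *Dnmt3a* was 4.08-fold lower at P30 (log2 difference -2.03, SE 0.16), *Tet1* 4.58-fold lower (log2 difference -2.20, SE 0.34) and *Tet3* 2.58-fold lower (log2 difference -1.37, SE 0.21). These 3 genes lay past both thresholds and 0.0596% of the genes tested, 9 of 15113, did so, a count from which nothing is read because these values chose the family. The other 6 genes had log2 differences of 0.18 for *Dnmt1*, -0.03 for *Uhrf1*, -3.96 (SE 1.77) for *Dnmt3b*, -0.37 for *Tet2*, -0.28 for *Mbd1* and -0.07 for *Mbd2*. From P8 to P14, a contrast that shares the P14 libraries, no member was called, against 0.536% of all genes. The P14 libraries lay below the P8 libraries without overlap for *Dnmt3a*, *Tet1*, *Tet2* and *Tet3*, with log2 differences of -0.55, -0.62, -0.67 and -0.50. For *Mbd2* they lay above without overlap, with a log2 difference of 0.44. The share of all genes without such overlap was not computed, so nothing is read from these separations.

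**Figure D2:**
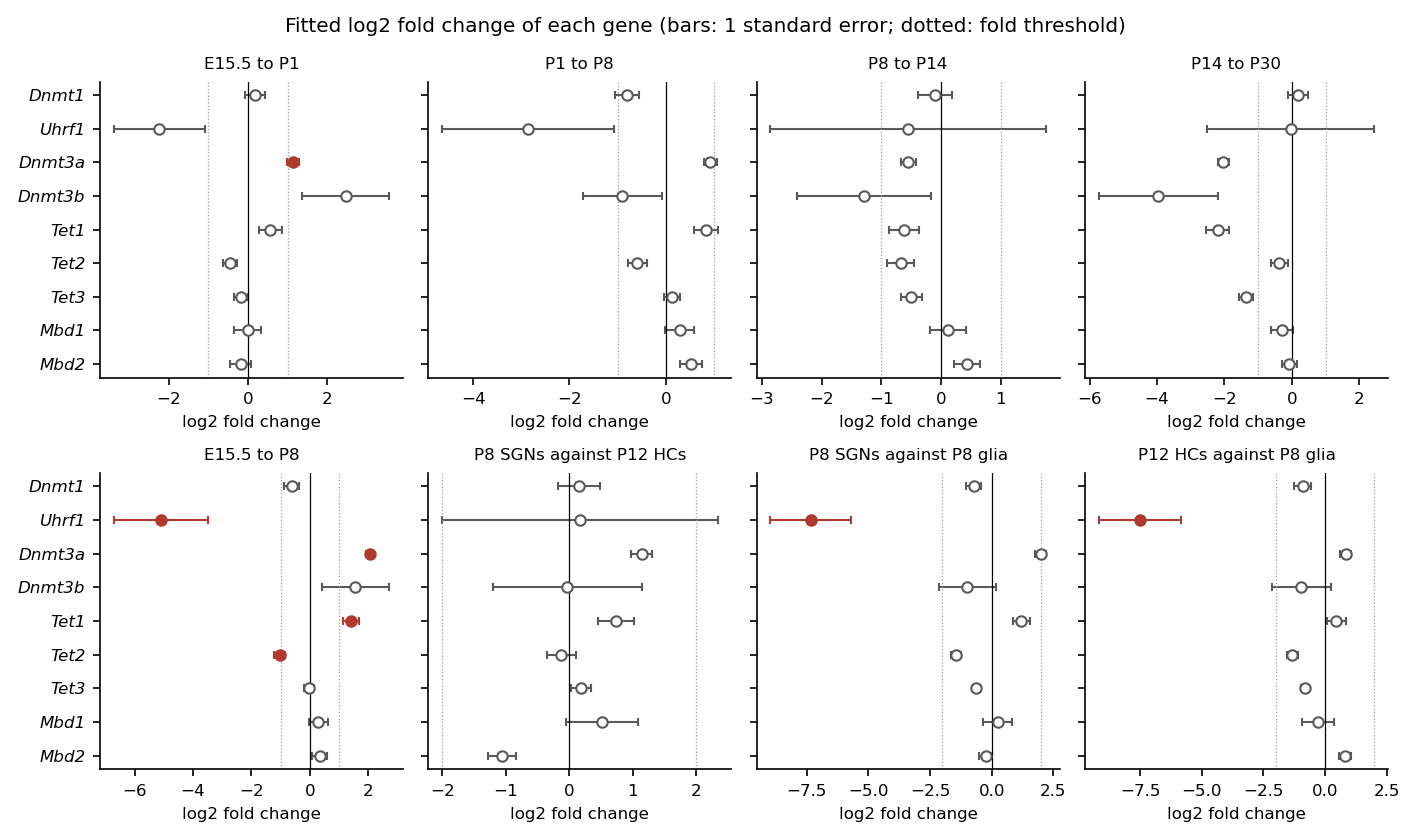
Fitted log2 difference of each gene in the 8 comparisons (x axis, log2 of the second group over the first for ages, and of the first named group over the second for cell types; bars, 1 standard error; dotted lines, the 2-fold or 4-fold threshold; filled red, past both thresholds). Symbols are unfilled for P14 to P30, where no test is given; *Dnmt3a* lies at 1.13 from E15.5 to P1, 2.06 from E15.5 to P8 and -2.03 from P14 to P30. The x axes differ between panels.

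Between cell types, *Dnmt3a* was higher in P8 SGNs, at 50.3 ± 3.05 RPKM (SD, n = 3), than in P12 HCs at 22.7 ± 0.86 and P8 glia at 13.2 ± 6.07. HC libraries held 22.6, 21.9 and 23.7 RPKM and glial libraries 17.4, 16 and 6.25. The difference from HCs was 2.21-fold (log2 1.14, SE 0.17, limma-voom adjusted p = 9.47e-06), which passed the p threshold of 0.01 but not the 4-fold change used between cell types. The difference from glia was 3.95-fold (log2 1.98, SE 0.22, limma-voom adjusted p = 6.52e-07), again just under 4-fold, and it passed 4-fold without the first glial library (log2 2.33), without the second (2.15) or without the first P8 library (2.01). HCs were of another age than the SGNs, P12 against P8, and age and cell type cannot be told apart in that comparison.

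*Dnmt3b*, the other de novo methyltransferase, was low, with at most 270 counts in any library. Its highest levels were 2.73 and 1.40 RPKM in the first and the third glial libraries, while the second held 0.0683. In SGNs it lay between 0.019 and 1.24 RPKM from E15.5 to P14, with the highest value in the first P1 library. At P30 it held 5, 0 and 0 counts. It was called in no comparison, and its SE was between 0.83 and 1.77 on the log2 scale.

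*Dnmt1*, which copies methylation after replication, varied less with age. Its level was 9.99, 10.3 and 11.3 RPKM at E15.5 and 18.6, 8.12 and 10.3 at P1. At the later ages it stayed between 5.36 and 8.13 RPKM, and HCs lay in the same range at 6.05, 7.13 and 5.37. Glia held 10.4, 18.7 and 7.65 RPKM, so that they overlapped with both younger and older SGNs. The difference from P1 to P8 was -0.80 on the log2 scale (SE 0.25, limma-voom adjusted p = 0.0511). It was -0.42 without the first P1 library and -1.06, past both thresholds, without the second. The difference between E15.5 and P8 did not pass either (log2 -0.63, SE 0.27, limma-voom adjusted p = 0.0838), though no library overlapped.

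*Uhrf1*, the partner that brings DNMT1 to replicated DNA, was at or near the limit of counting in SGNs from P8 on. It held 114, 245 and 58 counts at E15.5 (1.79, 2.79 and 0.66 RPKM) and 483, 2 and 24 counts at P1 (3.24, 0.0186 and 0.239 RPKM). From P8 to P30 no SGN library held more than 12 counts, and HCs held 8, 0 and 10. Glial libraries held 1516, 467 and 46 counts (18.4, 9.55 and 1.04 RPKM), so that the glial libraries spread widely but lay above every P8, P14, P30 and HC library. *Uhrf1* fell from E15.5 to P8 (log2 difference -5.09, SE 1.62, limma-voom adjusted p = 0.0242), a size that rests on 4, 9 and 3 counts at P8 and depends on how the fit treats low counts. Among SGN ages it passed the filter on low counts, over 1 CPM in all libraries of a group, through E15.5 alone, so it could be tested only because it was high there, and in the fit of all libraries it passed through E15.5 SGNs and glia. *Dnmt3b* passed through P1 SGNs and HCs alone, and the other 7 genes passed in all 7 groups. Without any 1 of the P8 libraries the call was lost, with adjusted p-values of 0.0736, 0.0663 and 0.0711. It was the only 1 of the 9 genes called between P8 SGNs and glia (log2 -7.34, SE 1.64, limma-voom adjusted p = 0.00115), where 20.9% of the 17531 genes tested were called. It was also the only one called between P12 HCs and glia (log2 -7.50, SE 1.67, limma-voom adjusted p = 0.0011), where 24.4% were called, and that call was lost without the second HC library (log2 -6.03, adjusted p = 0.0154 by the same test).

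The libraries with most *Uhrf1* also held most transcripts of 16 cell cycle genes, a list that holds DNA replication helicase subunits (*Mcm2* to *Mcm7*), cyclins and mitotic genes. Their summed level was 323, 179 and 131 RPKM in glia, 36.3, 52.4 and 35.3 at E15.5, and 55.5, 18.3 and 18.6 at P1. It was 15.2 to 20.9 RPKM in SGNs from P8 to P30 and 12.8 to 18 in HCs. Of the cell cycle genes tested, 11 of 15 were called lower in P8 SGNs than in glia and 10 of 15 lower in HCs than in glia, and 5 of 12 fell from E15.5 to P8, with none called in the other direction. Of all genes tested, 7.53%, 8.18% and 11.3% were called lower in these comparisons. Some of the list passed the filter only through a group where they were high (*Cdk1* and *Ccnb1* through glia, *Mcm3* through E15.5 SGNs and glia), so these counts are a description. *Mki67* was 0.55 RPKM in P8 SGNs on average and 45.8 in glia, and *Top2a* 0.247 and 23.6. *Pcna* made up much of the sum in P8 SGNs, at 9.65 of 18.1 RPKM on average. It was 9.82 RPKM at E15.5 and 49 in glia, so it was not lower at P8 than at E15.5 beyond its spread. In the first P1 library, where *Uhrf1* and *Dnmt1* were the highest of the SGN libraries, connective tissue markers summed to 70.7 RPKM, endothelial markers to 36.4 and blood markers to 19.5, against 3.63 to 4.38, 0.0567 to 0.129 and 0.398 to 0.51 in the other P1 libraries. The part of these cells in the *Uhrf1* and *Dnmt1* levels of that library was not tested. At other ages the first library also held the most of some of these markers, but not of all. The second E15.5 library held more connective tissue (21.1 against 17.7 RPKM) and endothelial transcripts (0.912 against 0.634) than the first. The third P14 library held more blood transcripts than the first (2.71 against 1.24 RPKM). Blood markers summed to 117 RPKM in the first E15.5 library and to 0.768 and 1.77 in the others. Connective tissue markers summed to 109 RPKM in the first P8 library against 13.9 and 9.99, to 30.4 in the first P14 library and to 16.4 in the first P30 library. From E15.5 to P8, *Dnmt3a*, *Tet1* and *Tet2* were called without the first E15.5 library, with log2 differences of 1.91, 1.09 and -1.10, and without the first P8 library, with 2.08, 1.31 and -1.07. The part of these transcripts in the levels of these first libraries was not tested.

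**Figure D3:**
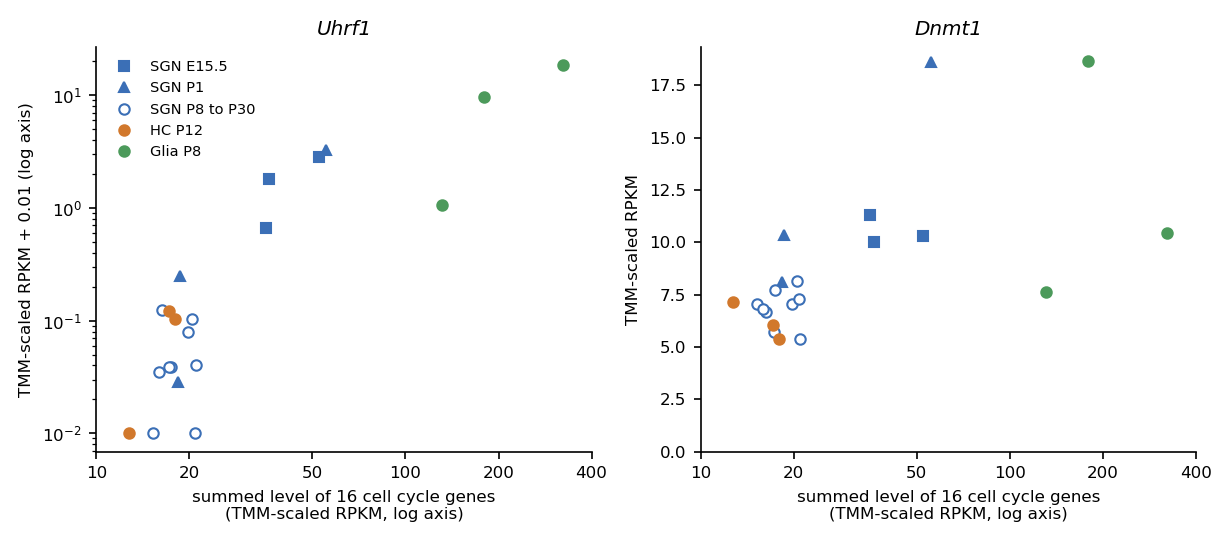
*Uhrf1* (left, TMM-scaled RPKM plus 0.01, log axis) and *Dnmt1* (right, TMM-scaled RPKM) against the summed level of 16 cell cycle genes (x axis, log axis) in the 21 libraries; symbols give the group. Libraries of glia, E15.5 SGNs and the first P1 library, with cell cycle sums of at least 35.3, have *Uhrf1* levels of at least 0.66 RPKM, and the remaining libraries lie at or below 0.239.

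*Tet1*, a dioxygenase of the erasers, had levels that rose up to P8 and were lower at the later ages. Its level was 3.46, 5.03 and 10.1 RPKM at E15.5, 7.57, 10.5 and 7.94 at P1 and 16.8, 13.9 and 14.9 at P8. At P14 it was 9.37, 12.3 and 8.06 RPKM and at P30 2.79, 1.75 and 1.98. The P8 libraries were above those of every other age and the P30 libraries below them, while E15.5 and P1 overlapped because the third E15.5 library was high. *Tet1* rose 2.64-fold from E15.5 to P8 (log2 difference 1.40, SE 0.27, limma-voom adjusted p = 0.00113). From P1 to P8 it was 1.78-fold higher (limma-voom adjusted p = 0.0358), below the fold threshold. From E15.5 to P1 it did not pass (log2 difference 0.57, SE 0.29), but without the third E15.5 library the difference was 1.01 and past both thresholds.

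*Tet2* went the other way. It was 9.10, 8.46 and 12.8 RPKM at E15.5, 7.11, 6.19 and 9 at P1, and 4.97, 4.64 and 4.99 at P8. It was 2.92, 3.19 and 3 RPKM at P14 and 2.03, 2.68 and 2.72 at P30, so that from P1 on no age overlapped with the next. *Tet2* fell from E15.5 to P8 by 1.04 on the log2 scale (SE 0.19, limma-voom adjusted p = 0.000664), but without the third E15.5 library the change was -0.85, under the 2-fold threshold. *Tet3*, the most abundant of the *Tet* genes in each of the 7 groups on average, showed no such trend up to P8. It was 19.3, 16.2 and 16.4 RPKM at E15.5, 16.2, 16.9 and 12.5 at P1 and 17.4, 14.9 and 17.8 at P8. The difference between E15.5 and P8 was -0.04 on the log2 scale (SE 0.17). It was 12.8, 14.1 and 8.67 RPKM at P14 and 5.03, 4.44 and 4.43 at P30.

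Glia carried more *Tet2* and *Tet3* and less *Tet1* than P8 SGNs. *Tet2* was 12.3, 10.9 and 18.3 RPKM in glia and 5.41, 5.50 and 5.07 in HCs. The difference of P8 SGNs from glia was -1.45 on the log2 scale (SE 0.21, limma-voom adjusted p = 1.72e-05), and that of HCs from glia was -1.32 (SE 0.22, limma-voom adjusted p = 6.25e-05); neither reached 4-fold. *Tet3* was 24.9, 23.8 and 28.7 RPKM in glia and 14.7, 14.6 and 14.7 in HCs, with log2 differences from glia of -0.62 for P8 SGNs (limma-voom adjusted p = 0.00273) and -0.80 for HCs (limma-voom adjusted p = 0.000522). *Tet1* was 11.4, 7.15 and 2.60 RPKM in glia, with the highest value in the first glial library, which also held the most SGN marker transcripts; their part in that level was not tested. *Tet1* was higher in P8 SGNs than in glia by 1.21 on the log2 scale (SE 0.35, limma-voom adjusted p = 0.00801). It was 8.58, 9.41 and 9.25 RPKM in HCs, below the P8 SGNs without overlap (log2 difference 0.74, SE 0.28, limma-voom adjusted p = 0.0403), which missed both thresholds. P8 SGN libraries also held 399 to 538 RPKM of glial marker transcripts, each of the 4 markers included, and the part of these in the P8 levels was not tested.

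Seen as shares, *Dnmt3a* outweighed the other methyltransferases most at P8. It made up 87.3% ± 2.42 (SD, n = 3) of the summed RPKM of the 3 *Dnmt* genes then, after 52.7% ± 4.15 at E15.5 and 67.8% ± 11.1 at P1, and before 83.9% ± 0.272 at P14 and 54.2% ± 3.78 at P30. In HCs it was 77.5% ± 3.14 and in glia 48% ± 8.24. Put as a ratio, the RPKM of *Dnmt3a* was 0.962 to 1.38 times that of *Dnmt1* at E15.5, 6.21 to 8.60 times at P8 and 1.00 to 1.34 times at P30. Such shares and ratios depend on the gene lengths used, 16642 bases for *Dnmt3a* and 7377 for *Dnmt1*. Before division by length, *Dnmt3a* held 2394, 4860 and 4344 counts at E15.5 and *Dnmt1* 1103, 1566 and 1724. At P30 *Dnmt3a* held 4087, 2869 and 2621 counts and *Dnmt1* 1807, 949 and 939. *Tet1* made up 17.8% ± 7.41 of the summed *Tet* RPKM at E15.5, 41.3% ± 1.62 at P8 and 23.2% ± 4.5 at P30, and *Tet2* 29.9% ± 2.35, 13.3% ± 0.6 and 26.9% ± 5.42 at these ages. The share of *Tet3* stayed between 45.5% and 55.3% on average in every group. The shares at E15.5 and P30 lay close together, but the sums did not all do so. The *Tet* sum was 29.7 to 39.3 RPKM at E15.5 and 8.87 to 9.86 at P30, and the *Dnmt* sum was 19.8 to 24.9 and 15.3 to 16.5. Glia had the highest *Tet* sums, 41.8 to 49.6 RPKM.

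**Figure D4:**
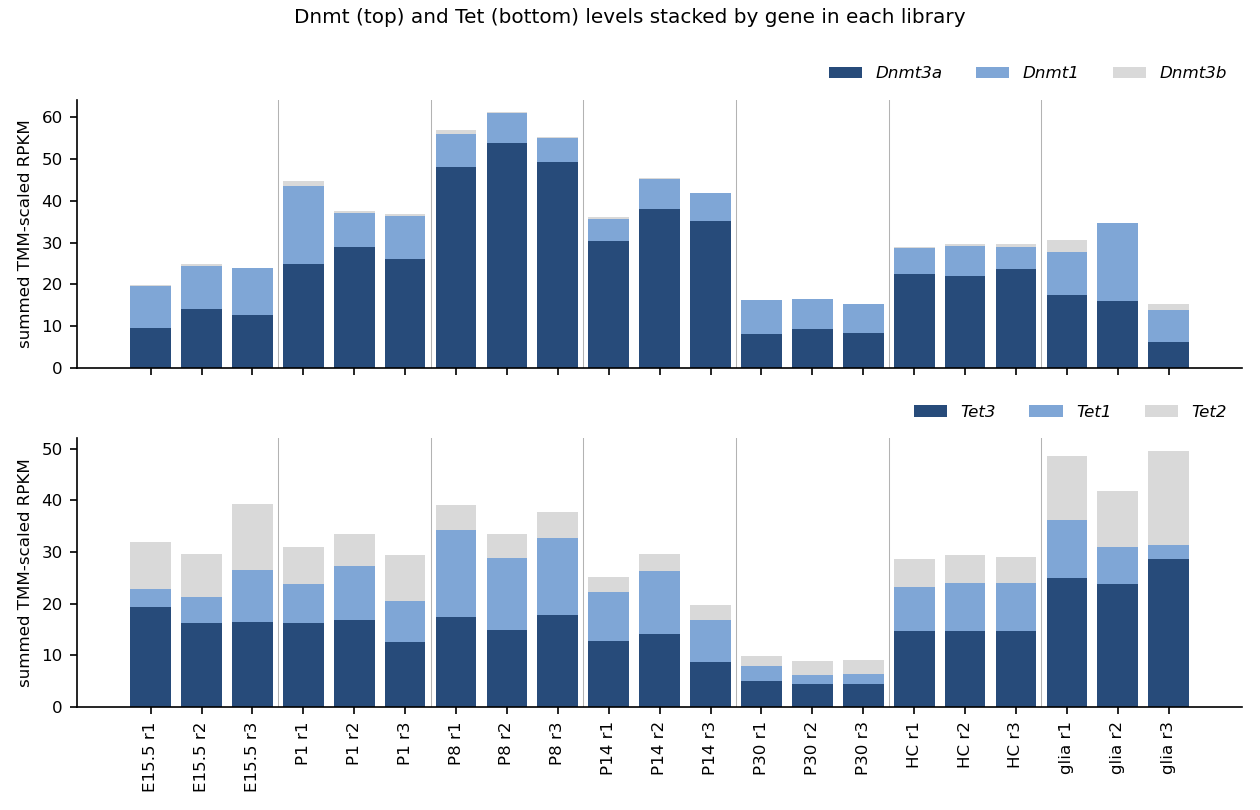
Levels of the 3 *Dnmt* genes (top) and the 3 *Tet* genes (bottom) stacked in each of the 21 libraries (y axis, summed TMM-scaled RPKM; r1 to r3, library number). *Dnmt3a* fills 84.6% to 89.2% of the *Dnmt* bar in the P8 libraries, and the P30 *Tet* bars end below 10 RPKM.

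Of the readers, *Mbd2*, whose protein recruits the NuRD complex to methylated DNA, was 10.6, 7.81 and 10.1 RPKM at E15.5, 7.87, 9.71 and 7.23 at P1 and 11.7, 13.3 and 10.2 at P8. It was 17.3, 14.1 and 16.1 RPKM at P14 and 13.2, 14.7 and 20.1 at P30, above every P8 library at P14 and overlapping with P8 at P30. It was called between no ages. Its highest levels were in HCs, at 22.7, 25.8 and 24.6 RPKM, above every SGN and glial library. HCs were 2.08-fold higher than P8 SGNs (log2 difference of SGNs from HCs -1.06, SE 0.22, limma-voom adjusted p = 0.000515), past the p but not the 4-fold threshold. The difference of HCs from glia, 0.81 on the log2 scale (SE 0.25, limma-voom adjusted p = 0.0122), missed both. None of the 9 genes was called between P8 SGNs and HCs, where 23.2% of the genes tested were. *Dnmt3a* and *Mbd2* had a limma-voom adjusted p under 0.01 there. The share of all genes with such a p alone was not computed, so this is no result about the family.

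*Mbd1*, another methyl-CpG binding repressor, was called in no comparison. SGN libraries held between 2.91 and 7.68 RPKM, and every pair of ages overlapped except E15.5 and P8, at 3.71 to 4.59 and 4.92 to 5.32 RPKM. HCs held 4.56, 3.52 and 2.96 RPKM. In glia the libraries disagreed: the first and second held 2.96 and 1.21 RPKM and the third 30.4, from 2080 counts. The comparisons with glia rest on this 1 library for their size, and that of HCs also for its sign. The log2 difference of P8 SGNs from glia was 0.24 (SE 0.60) with it and 1.32 without it (limma-voom adjusted p = 0.0475), and that of HCs from glia was -0.27 with it and 0.80 without it. Over the 18 alternatives run, the difference of P8 SGNs from glia ranged from -1.34 to 1.32, so its sign, too, depended on the setting.

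The rest of the pathway was followed with 28 genes that were listed by role, of which 26 could be tested. From E15.5 to P1, 0 were called higher and 1 lower, and from P1 to P8 also 0 and 1, where 8.26% and 7.44% of all genes were called. From P8 to P14 and from P14 to P30 none were called, against 0.536% and 0.0596%. From E15.5 to P8, 2 rose and 4 fell, a share near the 25.7% of all genes called there, with a median log2 difference of -0.18 beside 0.07 over all genes. *Mbd6*, an MBD-domain gene, fell from 21.7, 15.9 and 13.1 RPKM at E15.5 to 6.70, 6.18 and 8.92 at P1 (log2 difference -1.19, SE 0.23, limma-voom adjusted p = 0.00384) and 5.10, 3.63 and 4.98 at P8. *Zbtb4*, a zinc finger reader of methylated CpG, rose 2.60-fold from E15.5 to P8 (limma-voom adjusted p = 0.00168). Its levels were 4.51, 3.5 and 5.96 RPKM at E15.5, 12.9, 11.1 and 11.5 at P8 and 31.6, 25.6 and 32.3 at P30. *Tdg*, the glycosylase that cuts out oxidized methylcytosine, fell from 6.91, 6.43 and 8.2 to 2.11, 3.23 and 2.53 RPKM (log2 difference -1.47, SE 0.27, limma-voom adjusted p = 0.000744). *Idh1*, a cytosolic source of the 2-oxoglutarate that TET enzymes use, was 24.1 to 29.8 RPKM at P1 and 10.6 to 12.4 at P8 (log2 difference -1.25, SE 0.23, limma-voom adjusted p = 0.00207). *Uhrf2*, the paralog of *Uhrf1*, fell by 1.23 on the log2 scale (limma-voom adjusted p = 0.00826), and by 0.95, under 2-fold, without the third E15.5 library. *Mat2b*, a subunit of the enzyme that makes the methyl donor, rose by 1.13 (limma-voom adjusted p = 0.0231), and its call was lost without the first or second E15.5 library or the first P8 library (log2 1.01, 0.81 and 1.00). *Tdg* shares 6.83% of its exonic length with *Glt8d2* on the opposite strand.

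Between cell types, 1 of the 26 was higher and 1 lower in P8 SGNs than in HCs, 3 higher and 1 lower in P8 SGNs than in glia, and 3 higher and 3 lower in HCs than in glia. All genes tested were called at 23.2%, 20.9% and 24.4% in these comparisons, and none of the 3 shares of the pathway lay above that. *Mbd4*, a glycosylase for mismatches at methylated CpGs, was 6.97, 6.82 and 6.98 RPKM in HCs and 1.48, 1.10 and 0.948 in P8 SGNs (log2 difference of SGNs from HCs -2.56, SE 0.46, limma-voom adjusted p = 0.000103). *Mbd4* shares 5.00% of its exonic length with an antisense gene. *Ahcy*, which clears the product that inhibits methyltransferases, was 12.8, 12.3 and 11.3 RPKM in P8 SGNs and 1.35, 1.73 and 3.92 in HCs (log2 difference 2.48, SE 0.51, limma-voom adjusted p = 0.000409). *Cxxc4*, a CXXC-domain gene that binds unmethylated CpG and acts on TET2 protein, was 5.58, 7.54 and 5.66 RPKM in P8 SGNs and 0.466, 0.254 and 2.70 in glia (log2 difference 3.28, SE 0.65, limma-voom adjusted p = 0.000393). *Hells*, a chromatin remodeler needed for maintenance, was 0.477, 0.156 and 0.442 RPKM in P8 SGNs and 1.29, 2.61 and 2.17 in glia (log2 difference -2.52, SE 0.65, limma-voom adjusted p = 0.00367), and this call was lost without the second P8 library (log2 -1.99) or the second glial library (limma-voom adjusted p = 0.0125). *Cxxc5*, related to *Cxxc4*, was 4.36-fold higher in P8 SGNs than in glia, but this call was lost without the first P8 library, without the first glial library or without the third, with log2 differences of 1.99, 1.5 and 2.00. *Neil2*, a glycosylase of the repair pathway, was at 0.0206, 0 and 0 RPKM in glia, near the limit of counting, and no fold is given; its call was lost without the second or the third P8 library or without any 1 glial library. HCs were higher than glia in *Neil2*, *Mbd4* and *Cxxc4* and lower in *Hells*, *Gadd45b* and *Ahcy*, and of these only the calls of *Hells* and *Cxxc4* held without each single library.

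Over the 15 SGN libraries, the genes whose log2 levels ran most like a member were searched among 9349 genes with over 10 CPM in all libraries of at least 1 age. These correlations describe libraries that share ages and amplification, they include the P14 and P30 libraries whose values chose the family, and they carry no test. For *Dnmt3a* the closest were *Igsf9b* (r = 0.902), *Tet1* (0.900) and *Plxna1* (0.883), and for *Tet1* they were *Dnmt3a* (0.900), *Nrip1* (0.885) and *Casq1* (0.872). For *Tet2* they were *Ilf2* (0.975), *Zfp512b* (0.967) and *Ncan* (0.966), and for *Tet3* *Zdbf2* (0.947), *Gng12* (0.940) and *6330403K07Rik* (0.927). For *Uhrf1* the closest was the mitotic topoisomerase *Top2a* (0.917), followed by *Ppp1r18* (0.915) and *Tpm4* (0.901). For *Dnmt1* they were *Zfp28* (0.908), *Rsf1* (0.903) and *Mrpl52* (0.863), and for *Dnmt3b* *Zhx2* (0.868), *Brd2* (0.857) and *Rpl18* (0.853). For *Mbd2* they were *Nfasc* (0.952), *Tmem184c* (0.944) and *Abcf2* (0.931), and for *Mbd1* *Nudcd3* (0.767), *Ppp4r3b* (0.757) and *2610301B20Rik* (0.739). Within the family, r was 0.821 between *Dnmt1* and *Uhrf1*, 0.766 between *Tet1* and *Tet3*, and -0.808 between *Tet2* and *Mbd2*, while *Dnmt3a* and *Dnmt1* had an r of -0.255. Over the 9 libraries from E15.5 to P8 alone, *Dnmt3a* had an r of 0.862 with *Tet1*, -0.209 with *Tet3* and -0.889 with *Tet2*.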

How the data were processed

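RNA of 21 libraries was extracted with the PicoPure kit, amplified with the Ovation RNA-Seq System V2 and sequenced. The authors mapped reads to mm10 with STAR 2.4.0i, counted them on GENCODE vM15 genes with featureCounts and deposited raw counts for 52550 genes with gene lengths; strand, multimapping and pair settings were not given in the sources used here. Among counts of 1 to 20, a median of 67.9% per library were even, so a fragment may count as 2 reads. The labels describe HCs as picked by hand and the methods as sorted. Symbols came from GENCODE M21.

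Counts were normalized by TMM (edgeR 4.0.16) and fitted by limma-voom (limma 3.58.1, R 4.3.3) with group means, two-sided, with Benjamini-Hochberg adjustment over all genes tested. Genes needed a CPM over 1 in all libraries of a group. The 15 SGN libraries gave 15113 genes (2-fold, adjusted p 0.05), and all 21 libraries gave 17531 genes for cell types (4-fold, adjusted p 0.01). Likeness was Pearson's r of log2(TMM-scaled CPM + 1). Scripts were tested on simulated data. Tables and plots used pandas 2.3.3 and matplotlib 3.10.9.

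The members and lists were chosen with earlier results of these data known. All 9 members are named, pathway genes where called, up to 10 a comparison, and for each member its 3 closest genes. The labels do not say whether libraries are separate animals, so p-values measure the spread between these libraries. No 2 libraries held identical counts. Deviations of libraries with the same number correlated at r = 0.397, 0.277 and 0.14 between P14 and P30 and at 0.411, 0.091 and 0.175 between P1 and P8. Between E15.5 and P1 they correlated at -0.08, -0.092 and 0.086. No label states a pairing, and the main fits used none. A replicate block was run as an alternative.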

Additional observations from a re-analysis of the deposited data

How the results depend on the processing

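From E15.5 to P1, 1 of the 9 genes was called, and 0 were called with library size as the only scaling or under stricter thresholds, 4-fold and an adjusted p of 0.01; leaving out single libraries gave 0 to 2. From P1 to P8, 0 were called, but 1 with library size only (*Dnmt1*) and 1 with the DESeq2 Wald test (*Uhrf1*), and 0 to 1 with a library left out. From P8 to P14, 0 were called under every setting run. From P14 to P30, whose values chose the family, the count was 3, with 1 under the stricter thresholds and 1 to 3 with a library left out, given as a description that carries no test. From E15.5 to P8, 4 became 1 under the stricter thresholds, where 7.68% of all genes were called, and 3 to 4 with a library left out. Under looser thresholds, 2-fold and an adjusted p of 0.05, 2 were called between P8 SGNs and HCs (main 0), 4 between P8 SGNs and glia (main 1) and 2 between HCs and glia (main 1). Of all genes tested, 40.5%, 39.6% and 41.9% were called under these looser thresholds, so nothing about the family is read from these counts. Between P8 SGNs and glia, 2 were called without a filter on low counts, with filterByExpr and with the 6 libraries alone, *Dnmt3a* being the second. Of all genes tested, 10.8%, 15.7% and 18.1% were called under these settings. With a library left out, 1 to 2 were called between P8 SGNs and glia, and 0 to 1 between HCs and glia. No called direction was reversed. A replicate block changed the count of members called in no comparison. The cause of these changes was not tested.

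Scaling by library size alone moved the median log2 difference of all genes by more than 0.1 in every comparison except P14 to P30, for example from 0.02 to -0.60 between P8 SGNs and HCs and from 0.14 to 0.63 between HCs and glia. Under it *Dnmt3a* was higher in P8 SGNs than in HCs by 0.53 and *Mbd2* lower by 1.68 (log2 difference -1.68), so both kept their direction, while *Tet3*, not called, went from 0.18 to -0.43. With the mean of the 5 SGN ages in place of P8, the difference of *Dnmt3a* from HCs was -0.07. For *Uhrf1* and *Dnmt3b*, counts under 10 in many libraries limit what can be shown. Over all genes, the share called from P14 to P30 was 0.0596% and ranged from 0.0156% with the 6 libraries alone to 0.728% with sample quality weights; from P8 to P14 it was 0.536%, with a range of 0.218% without a filter to 1.31% by the DESeq2 Wald test.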

Other observations

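The summed levels of the pathway lists entered no comparison and were not tested; they are given here at E15.5, P8 and P30. The 11 removal partners summed to 132 to 177 RPKM at E15.5, 115 to 135 at P8 and 95.3 to 109 at P30, where E15.5 and P8 overlapped. The 5 genes that supply cofactors summed to 82.3 to 118, 103 to 114 and 73.6 to 84 RPKM at these ages. The E15.5 range overlapped with both others. The 7 other readers summed to 55.1 to 82.5, 66.1 to 68.1 and 83.5 to 92.7 RPKM, with overlap between E15.5 and P8. The 5 maintenance partners summed to 22.7 to 28, 14.2 to 18 and 16.8 to 20.8 RPKM, with overlap between P8 and P30. In glia the maintenance partners summed to 56.7 RPKM in the third glial library and 23.2 and 26 in the other glial libraries; *Uhrf2* was 16.9 RPKM in that library and 7.13 and 3.81 in the others. It is the same library that held 30.4 RPKM of *Mbd1*.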
